A study of Mus musculus with 15 samples.

Results

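The genes described here encode the histones that package newly replicated DNA: the linker histone H1 and the core histones H2A, H2B, H3 and H4. They were taken from the count table by symbol, as every row named H1f, H2ac, H2bc, H3c or H4c followed only by digits. The rule found 73 of the 40402 genes in the table, with 11 H1, 18 H2A, 19 H2B, 12 H3 and 13 H4 genes. Their mRNA was measured by bulk RNA-seq in 4T1, a mouse mammary carcinoma line used as a model of triple-negative breast cancer and labelled WT for genotype. The 5 conditions were untreated cells, cells given blackberry extract (BLA) or blueberry extract (BLU), and cells given gold nanoparticles made with either extract (BLA-A and BLU-A). Treatment began 24 hours after seeding in RPMI1640 with serum, all cells shared this culture, and 4T1 is grown without the tissue it came from.

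Each condition has 3 columns in the table, but columns that share a condition vary by less than sampling noise (chi-square divided by its degrees of freedom, 0.0951 to 0.475) and were counted as 1 library. Differences between conditions therefore have no replicate check, and intervals cover counting error only. The mean total per library ran from 25613711 to 26956308 counts, so a gene at 0 could be at up to 0.111 to 0.117 CPM (3 counts, with CPM the counts scaled to a common library total). The mammary epithelial markers Krt8, Krt18, Epcam and Cdh1 were read in every library, with a summed level of 801.5 to 1396.5 CPM over the 6 markers of that list, lowest in BLA and highest in BLA-A. This order did not hold for each marker. Epcam was lowest in BLA-A (39.7 CPM, against 68.8 in untreated cells), and Cdh1 was at 124.1 CPM in BLA and 123.7 in untreated cells. Krt5 was at 0 and Krt14 under 1 CPM. Of the 4 fibroblast markers Pdgfra was at 86.0 to 102.2 CPM and Dcn at or under 0.339, the 3 leukocyte markers summed to 7.78 to 9.10 CPM with Cd3e at or under 0.138, the 2 endothelial markers summed to 1.51 to 2.72, and Adipoq, the adipocyte marker, was at or under 0.377. Their part in the histone values was not tested. Fewer cells making an mRNA and less mRNA per cell cannot be told apart in these libraries.

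Histones H2A, H2B, H3 and H4 form the protein core around which DNA is wrapped, and H1 binds the DNA between cores. Cells make most of these proteins from clustered, mostly intronless genes that are transcribed in S phase, when DNA is copied. Unlike other mRNAs, theirs usually ends in a short stem-loop in place of a poly(A) tail, and the stem-loop binding protein SLBP attends their processing, export and translation. Libraries made by removing ribosomal RNA, as these were, can read mRNAs that have no poly(A) tail. The chromosomal layout follows the families only in part: 54 of the 73 genes lie on chromosome 13, 10 on chromosome 3, 4 on chromosome 11, 3 on chromosome 6 and 2 on chromosome 15 (GRCm39, GENCODE M39).

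The genes were chosen by symbol, and the stem-loop is the sequence feature typical of such mRNAs. It was searched for in the 200 bases after each stop codon, as GGNNNTTNTNAGNNCC on the gene's own strand. It was found in 63 of the 73 genes (86.3%) and in 27 of 21583 other protein-coding genes (0.125%). The commonest form was shared by 39 genes, a form with a different loop by 9 and the usual H4 form by 8. The following sequences, read from GRCm39, show each of the 8 forms found, with the stem-loop in capitals and 5 bases of flank on each side in lower case.
H2ac8, chr13:23754837-23754862, minus strand: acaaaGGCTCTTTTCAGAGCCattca
H2bc8, chr13:23756012-23756037, plus strand: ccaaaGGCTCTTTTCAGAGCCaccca
H3c6, chr13:23746072-23746097, minus strand: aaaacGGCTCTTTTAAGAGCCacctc
H3c8, chr13:23720054-23720079, plus strand: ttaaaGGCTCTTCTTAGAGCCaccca
H2ac20, chr3:96127729-96127754, minus strand: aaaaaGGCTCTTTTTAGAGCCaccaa
H4c4, chr13:23765928-23765953, plus strand: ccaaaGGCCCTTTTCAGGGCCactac
H4c14, chr3:96170250-96170275, minus strand: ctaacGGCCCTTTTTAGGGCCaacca
H4c11, chr13:21919602-21919627, plus strand: ctaaaGGTCCTTTTCAGGACCaccac
H4c1, chr13:23944778-23944803, minus strand: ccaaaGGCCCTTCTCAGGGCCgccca

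All 13 H4 genes had a stem that differs from the one in the other families, and H2ac8 and H2bc8 had the same 16 bases. The part of the stem-loop form in the values below was not tested. The 10 genes without a match were H1f0, H1f7, H1f8, H1f9, H1f10, H2ac22, H2bc21, H2bc22, H2bc23 and H2bc24. The transcripts used for H2bc22, H2bc23 and H2bc24 have 2 exons and 402 or 414 coding bases, against 378 for H2bc8. The search followed their stop codon, so a stem-loop after a shorter coding sequence could be missed. H1f0 and H1f10 encode replacement linker histones that cells make outside S phase from mRNAs with a poly(A) tail, and H1f7, H1f8 and H1f9 belong to germ cells. So the name replication-dependent held for most of the genes by this feature. Of those without a match, H1f0, H2ac22, H2bc21 and H2bc22 were read well enough to be compared.

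Of the 73 genes, 57 reached 1 CPM in at least 1 library and were compared: 5 H1, 15 H2A, 14 H2B, 11 H3 and 12 H4 genes, of which 53 had the stem-loop. H1f7, H1f9, H2ac1 and H2ac25 were at 0 in all 5 libraries. H1f6, H1f8, H1f10 and H2bc1, made in germ cells or in place of S phase histones, stayed under 1 CPM, as did H1f1, H2ac24, H2bc23, H2bc24, H2bc26, H2bc27, H3c14 and H4c17. Levels of the genes read were set per kilobase of coding sequence, which is a rough scale. Reads were counted on whole gene features, and those mapping to several places were left out, so genes can lose unlike parts of their reads. In untreated cells H4c4 stood highest at 4532.1 CPM per kb, followed by H1f0 at 2089.6, H1f2 at 1000.9, H2bc18 at 944.3, H1f3 at 848.3 and H1f4 at 826.7. All other members were at or under 330.6 CPM per kb, the level of H1f5.

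Together the 73 genes took 0.654% of all counts in untreated cells (95% Wilson interval 0.651 to 0.657). With the plain extracts the share was 0.311% (BLA, 0.309 to 0.313) and 0.391% (BLU, 0.388 to 0.393). With the nanoparticles it was 0.568% (BLA-A, 0.565 to 0.571) and 0.586% (BLU-A, 0.583 to 0.589). None of these intervals overlapped. The order of the 3 highest libraries depends on the scaling, since the summed TMM-normalized level was 6322.4 CPM in untreated cells, 6278.9 in BLA-A and 5685.1 in BLU-A, against 3077.2 in BLA and 3805.8 in BLU. H4c4 and the H1 genes made up most of this sum. Without them the remaining genes took 0.180% of counts in untreated cells, 0.0755% and 0.0949% with BLA and BLU, and 0.158% and 0.253% with BLU-A and BLA-A, so that BLA-A became the highest library.

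**Figure D1:**
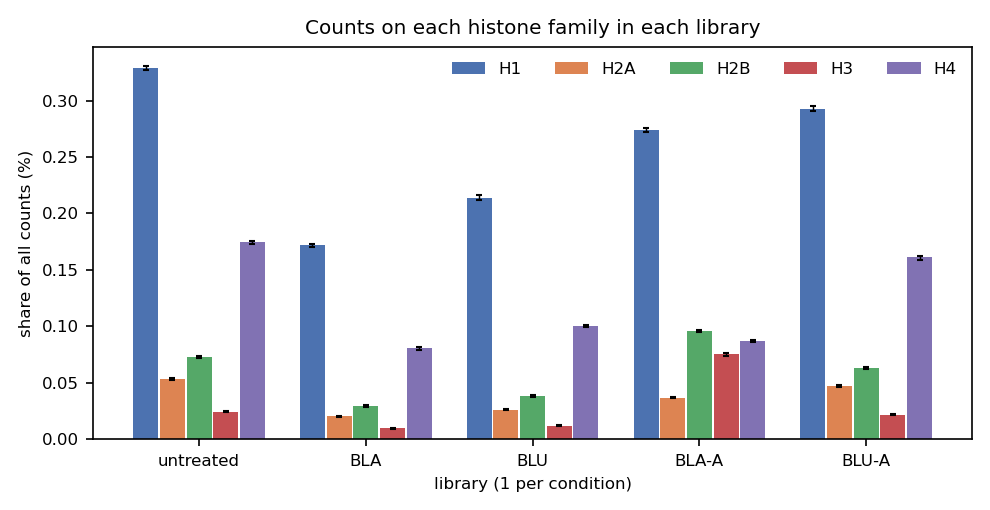
Share of all counts (%, y axis) on the genes of each histone family in each of the 5 libraries (x axis), with 95% Wilson intervals for counting error. H3 and H2B stood highest in BLA-A, at 0.0750% and 0.0958%, while H1, H2A and H4 stood highest in untreated cells.

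In BLA, all 57 genes compared had a negative log2 fold change, that of H3c15 0.00 after rounding, against untreated cells (taken on TMM-normalized CPM plus 0.5), where 50.9% of all 17594 genes did. The fold change was beyond -1 for 38 of the 57 (66.7%), against 8.50% of all genes, and beyond 1 for none, against 7.91%. The median was -1.15 beside -0.01 over all genes. In BLU the differences were smaller, with 55 of 57 below 0, 22 beyond -1 (38.6%, against 4.61% of all genes), none beyond 1 (5.64%) and a median of -0.88. Among the 13 genes that share at most 50% of their sequence windows with another member, 1 was beyond -1 in BLU and 7 in BLA. For 46 of the 57 genes the level was lower in BLA than in BLU. All 4 treatments are compared with the same untreated library.

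In BLU-A the genes lay near their untreated level, with a median of -0.17. Of the 57, 2 were beyond -1 (3.51%, against 4.48% of all genes), H2ac18 and H2ac23, and none was beyond 1 (3.39%). In BLA-A 20 genes were beyond 1 (35.1%, against 8.55% of all genes) and 8 beyond -1 (14.0%, against 12.3%), with a median of 0.49, 37 genes above 0 and 20 below. The lower count lies near the background, while the 20 higher genes were 9 of H3, 5 of H4, 4 of H2B and 2 of H2A.

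Taking each gene's 5 libraries in order, BLA was the lowest for 40 of the 57 genes, BLU for 11 and BLA-A for 6. BLA-A was the highest for 37, untreated cells for 19 and BLU-A for 1. By family, BLA-A was the highest library for all 11 H3 genes, 13 of 14 H2B and 7 of 12 H4, but for 4 of 15 H2A and 2 of 5 H1 genes. With 1 CPM asked of every library, 51 of the genes remained, of which 34 in BLA and 19 in BLU were beyond -1, and in BLA-A 18 were beyond 1 and 7 beyond -1. The 6 genes this removes are H2ac18, H2ac19, H2ac23, H2bc21, H3c1 and H3c15. H2ac18 and H2ac23 reach 1 CPM in untreated cells alone, and H2ac19 and H3c15 in BLA-A alone. H2bc21 and H3c1 fall under 1 CPM in BLA alone.

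**Figure D2:**
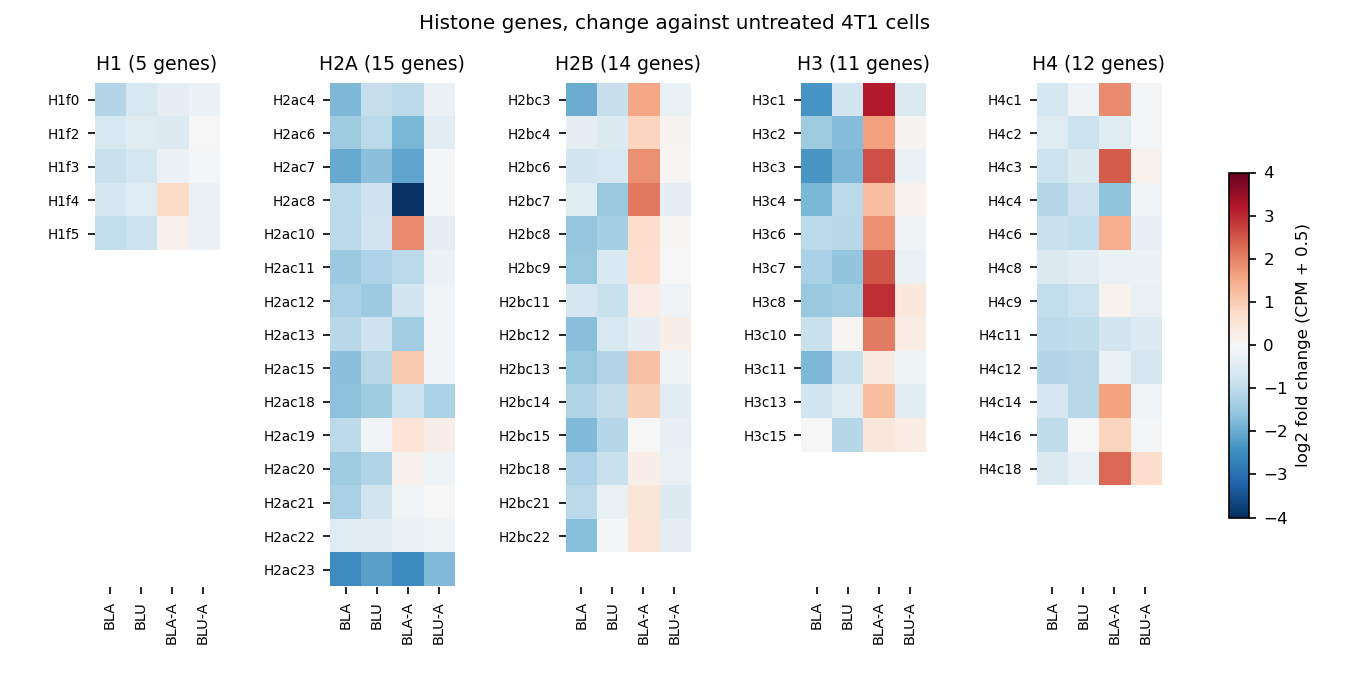
log2 fold change against untreated cells (color, CPM plus 0.5) of the 57 compared histone genes (rows, in 1 panel per family) in the 4 treatments (columns). BLA and BLU columns are blue in nearly every row, BLU-A columns are pale, and the BLA-A column is red for H3 and most H2B genes and blue for most H2A genes, with H2ac8 lowest at -3.94 and H3c1 highest at 3.17.

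H1 genes encode the linker histones, and their summed CPM was the largest of any family. No H1 gene shares over 50% of its 50-base windows with another member, against 15 of 18 H2A and 12 of 12 H3 genes. Reads mapping to several places were left out and CPM is not scaled for gene length, so the families are not on a common scale. The summed H1 level was 3180.3 CPM in untreated cells, 1699.4 with BLA, 2086.1 with BLU, 3026.3 with BLA-A and 2846.3 with BLU-A. H1f0, the replacement linker histone, was at 1216.1, 535.4, 783.2, 934.4 and 1022.0 CPM in the same order. It was lowest in BLA, with a log2 fold change of -1.18 (95% counting interval -1.21 to -1.16), the only H1 gene beyond -1.

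Within the S phase H1 genes, H1f2 and H1f4 parted in BLA-A. H1f4 was at 543.1 CPM in untreated cells, 341.8 with BLA, 379.4 with BLU, 920.5 with BLA-A and 466.2 with BLU-A. H1f2 was at 636.6, 407.4, 457.1, 438.8 and 624.6 CPM. H1f2 thus stood below its untreated level in BLA-A (log2 fold change -0.54, interval -0.57 to -0.50) and H1f4 above it (0.76, 0.73 to 0.79). H1f3 and H1f5 lay between, at -0.22 and 0.18. The annotated H2bc6 gene overlaps H1f4 on the same strand, so some reads of the 2 genes cannot be told apart.

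H2A, which pairs with H2B in the nucleosome core, was the family with the widest range in BLA-A. In BLA, 14 of its 15 compared genes were beyond -1 with a median of -1.41, and in BLU 8 were, with a median of -1.09. In BLA-A 7 were beyond -1 and 2 beyond 1. H2ac20, the most counted H2A gene in untreated cells, was at 120.3 CPM there, 44.8 with BLA, 52.2 with BLU, 135.6 with BLA-A and 106.9 with BLU-A. Its levels in untreated cells, BLA-A and BLU-A lay close together, and both plain extracts stood far below.

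H2ac8 showed another order. It was at 114.2 CPM in untreated cells, 53.3 with BLA, 64.7 with BLU, 6.99 with BLA-A and 111.3 with BLU-A. It was read with 3045 counts in untreated cells and 162 in BLA-A, a log2 fold change of -3.94 (interval -4.27 to -3.80). That was the lowest value of any histone gene in any treatment, and H2ac8 was the only one of the 57 beyond -1 in BLA-A against BLA (-2.85). H2ac10 and H2ac15 were above their untreated level in BLA-A. H2ac10 was at 14.7, 6.87, 8.40, 55.5 and 11.4 CPM over untreated, BLA, BLU, BLA-A and BLU-A, and H2ac15 at 52.2, 16.2, 24.2, 108.6 and 48.4 CPM.

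Genes beyond -1 in at least 3 of the 4 treatments were 5 of the 57, against 3.71% of all genes, and all 5 were H2A genes: H2ac6, H2ac7, H2ac11, H2ac18 and H2ac23. Among genes with 1 CPM in every library it was 3 of 51 (5.88%), against 0.256% of 13306 genes. No histone gene was beyond 1 in 3 treatments, against 1.61% of all genes. H2ac6 was at 34.1 CPM in untreated cells, 12.5 with BLA, 15.8 with BLU, 9.16 with BLA-A and 25.1 with BLU-A. H2ac7 was at 7.17, 1.40, 1.90, 1.28 and 6.84 CPM, and H2ac11 at 11.4, 3.78, 4.57, 5.13 and 9.54. In these 3 genes untreated cells and BLU-A stood above the other libraries. H2ac18 and H2ac23 were rarely read, with 37 and 92 counts in untreated cells and at most 12 and 18 in any treatment, and they were kept only through the untreated library. For H2ac23 the log2 fold change ran from -2.55 (BLA-A) to -1.76 (BLU-A), with BLA at -2.53 and BLU at -2.18. The coding sequences of all 5 genes share 81.8% (H2ac6) or 100.0% of their 50-base windows with another member. Reads mapping to several places were left out, so the values of these genes can miss most of their coding reads.

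All 14 H2B genes compared stood below untreated cells in both plain extracts, and 13 of 14 stood above in BLA-A. H2bc12 was the other, at 24.4 CPM in untreated cells and 18.6 in BLA-A (-0.39, interval -0.58 to -0.22), and H2bc15 was level with untreated cells there (0.03, -0.07 to 0.14). In BLA 10 of 14 were beyond -1 (median -1.38), in BLU 4 (median -0.89), and in BLA-A 4 were beyond 1 and none beyond -1 (median 0.69). H2bc18 alone held 50.7% of the summed H2B level in untreated cells. It was at 357.0 CPM in untreated cells, 150.9 with BLA, 191.5 with BLU, 434.5 with BLA-A and 289.8 with BLU-A. H2bc8 was at 63.0, 21.3, 24.9, 102.9 and 64.8 CPM, and H2bc15 at 58.5, 16.7, 26.5, 59.9 and 46.9. H2bc7, with the highest H2B fold change in BLA-A (2.10, interval 1.95 to 2.43), was at 6.65, 4.66, 2.02, 30.2 and 4.97 CPM. The 4 H2B genes beyond 1 in BLA-A were H2bc3, H2bc6, H2bc7 and H2bc13. Of these, H2bc6 overlaps H1f4 and H2bc3 overlaps H3c3, so some reads of these genes cannot be told apart. H2bc4 and H2bc7 had the highest log2 fold changes of any histone gene in BLA among those with at least 20 counts, at -0.36 and -0.47.

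H3 genes showed the widest difference between BLA and BLA-A. Their summed level was 234.4 CPM in untreated cells, 93.3 with BLA, 116.3 with BLU, 828.4 with BLA-A and 210.7 with BLU-A. In BLA 8 of 11 were beyond -1 (median -1.42), in BLU 7 (median -1.12), and in BLA-A 9 were beyond 1 (median 1.82) and none below 0. All 12 H3 genes share over 50% of their 50-base windows with another member. Of the 13 compared genes that share at most 50%, none of them H3, 2 were beyond 1 in BLA-A. H3c6 was at 59.7 CPM in untreated cells, 27.7 with BLA, 27.3 with BLU, 212.2 with BLA-A and 54.6 with BLU-A. H3c13 was at 47.6, 27.1, 34.7, 110.9 and 34.7 CPM, and H3c7 at 25.7, 10.2, 8.33, 150.9 and 21.1. In all 3 genes BLA-A stood above the other 4 libraries, which lay closer together. These 3 have the highest mean level over the 5 libraries, BLA-A included. H3c11, above H3c7 in untreated cells, was at 38.8 CPM there and 50.3 in BLA-A (0.37, interval 0.25 to 0.50).

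H3c1 had the highest log2 fold change of the histone genes. It was at 3.73 CPM in untreated cells, 0.318 with BLA, 2.00 with BLU, 37.5 with BLA-A and 2.35 with BLU-A. Its log2 fold change was 3.17 in BLA-A (interval of the ratio 3.03 to 3.65) and -2.37 in BLA, where it was read with 9 counts against 99 (interval of the ratio without the added 0.5, -4.66 to -2.51). H3c8 was at 9.20, 2.90, 3.23, 75.0 and 12.4 CPM, a log2 fold change of 2.96 in BLA-A (2.83 to 3.23) and 0.41 in BLU-A (0.19 to 0.68). H3c3 was at 14.4, 2.44, 3.79, 89.0 and 12.3 CPM, the lowest H3 gene in BLU by log2 fold change (-1.79) and at 2.59 in BLA-A. H3c10 differed in BLU, where it had the highest log2 fold change of any histone gene (0.04, interval -0.31 to 0.40), with 4.96 CPM in untreated cells, 2.42 with BLA, 5.12 with BLU, 22.7 with BLA-A and 6.19 with BLU-A. Its BLU and untreated levels did not differ beyond counting error.

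H4, the most conserved core histone, was carried by 1 gene in most libraries. H4c4 held 82.8% of the summed H4 level in untreated cells, from 79.3% to 84.1% under BLA, BLU and BLU-A, and 47.8% in BLA-A. H4c4 was at 1400.4 CPM in untreated cells, 631.0 with BLA, 794.7 with BLU, 458.7 with BLA-A and 1309.9 with BLU-A. It was the only H4 gene beyond -1 in BLA-A (-1.61, interval -1.64 to -1.58). The summed H4 level of 1690.8 CPM in untreated cells and 959.2 in BLA-A therefore hides genes that were higher. H4c3 was at 11.1 CPM in untreated cells and 61.9 in BLA-A, and H4c14 at 30.1, 18.8, 13.8, 92.0 and 27.9 CPM over untreated, BLA, BLU, BLA-A and BLU-A.

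H4c18 was the highest histone gene in BLU-A by log2 fold change (0.69, interval 0.48 to 0.96), at 8.50, 5.51, 7.04, 42.5 and 14.0 CPM. H4c16 was level with untreated cells in BLU (0.02, interval -0.15 to 0.19), at 21.5, 10.3, 21.8, 40.1 and 20.2 CPM. H4c8, the next most counted after H4c4 in untreated cells, varied least of these, at 67.1, 44.3, 50.1, 55.6 and 57.0 CPM. In all, 5 of 12 H4 genes were beyond -1 in BLA (median -0.87) and 3 in BLU (median -0.83), and in BLA-A 5 were beyond 1 (median 0.51).

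**Figure D3:**
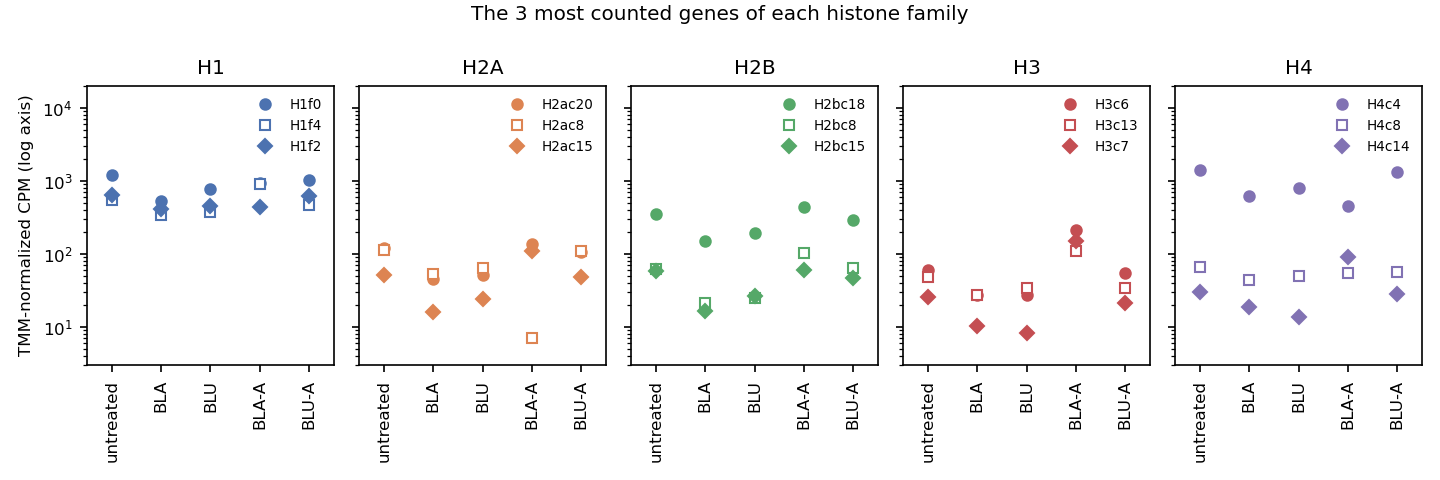
TMM-normalized CPM (log axis) of the 3 genes of each family with the highest mean level in the 5 libraries. BLA and BLU lie below untreated cells throughout, and BLA-A splits the genes, with H2ac8 down at 6.99 CPM and H4c4 at 458.7 CPM, while all 3 H3 genes are at 110.9 CPM or more.

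The nanoparticles can also be compared with the extract of the same berry, without the untreated library. Against BLA, 37 of 57 genes were beyond 1 in BLA-A (64.9%, against 11.6% of all genes) and 1 beyond -1 (1.75%, against 13.0%), with a median of 1.59. By family the median was 3.02 for H3, 2.18 for H2B, 1.52 for H4, 0.80 for H1 and 0.53 for H2A. H3c1, with 869 counts against 9, had the highest log2 fold change of all 17594 genes, at 5.54, on few reads in BLA. Against BLU, 53 of 57 genes were higher in BLU-A, 12 of them beyond 1 (21.1%, against 2.89% of all genes) and none beyond -1 (3.79%), with a median of 0.69. H3c2 led this comparison, with 94 counts in BLU and 362 in BLU-A, a log2 fold change of 1.85. Both nanoparticle libraries thus stood above their plain extract for most histone genes. None of these differences was tested.

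H2A and H2B genes often lie head to head, sharing the stretch between their start codons. The annotation held 13 such pairs with at most 500 bases between the coding starts, and in 9 both genes were compared. The median difference of a pair (H2A minus H2B log2 fold change) was 0.12 with BLA, -0.35 with BLU and 0.05 with BLU-A, with the H2A gene the lower in 4, 6 and 4 of the 9 pairs. In BLA-A the median difference was -1.39, and the H2A gene was the lower of the pair in 8 of 9. H2ac8 and H2bc8 were at -3.94 and 0.70, H2ac7 and H2bc7 at -2.11 and 2.10, H2ac6 and H2bc4 at -1.84 and 0.85, and H2ac13 and H2bc13 at -1.38 and 1.17. H2ac15 and H2bc15 were the exception, at 1.05 and 0.03. The coding sequence of H2ac8 is 69.0% GC and that of H2bc8 63.5%, and in the exception H2ac15 is 68.7% and H2bc15 63.0%. The part of GC content in these differences was not tested.

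**Figure D4:**
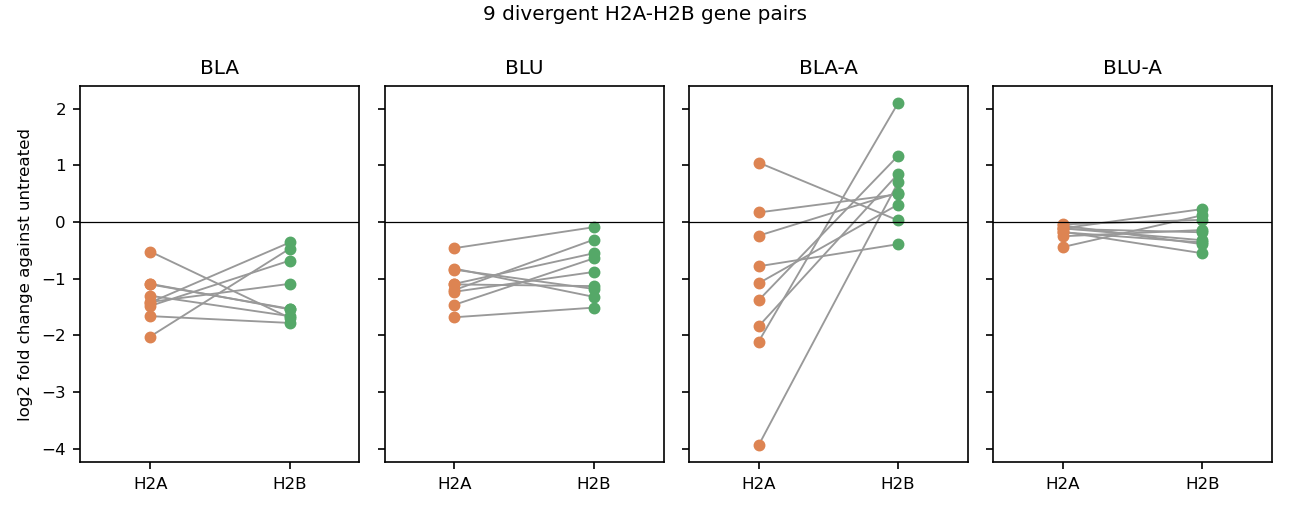
log2 fold change against untreated cells (y axis) of the H2A gene (orange) and the H2B gene (green) of each of 9 head-to-head pairs, joined by a line, in the 4 treatments. With BLA-A 8 of the 9 lines slope up from H2A to H2B, against 4 with BLA, 6 with BLU and 4 with BLU-A.

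Promoters from RefSeq (GRCm38.p6, 250 bases before to 50 after the start) were found for 62 of the 73 genes and searched on both strands for the CCAAT box, for TATAAA as the core of the TATA box, and for the octamer ATTTGCAT, which OCT1 binds. The CCAAT box was in all 17 H2A, all 14 H2B and all 10 H3 promoters, in 7 of 10 H1 and in 3 of 11 H4 promoters, and in 41.0% of other genes. TATAAA was in 34 of the 62 (54.8%, against 15.6%). The octamer was in 7 of 14 H2B and 6 of 17 H2A promoters, in no H1, H3 or H4 promoter, and in 1.92% of other genes. Promoters are printed for H2bc8 because its window overlaps that of H2ac8, for H3c8 as an H3 gene that was high in BLA-A, and for H4c4 as the H4 gene that was low there. Capitals mark matches to any of these motifs on either strand.
H2bc8, GRCm38.p6 chr13:23571150-23571449, plus strand: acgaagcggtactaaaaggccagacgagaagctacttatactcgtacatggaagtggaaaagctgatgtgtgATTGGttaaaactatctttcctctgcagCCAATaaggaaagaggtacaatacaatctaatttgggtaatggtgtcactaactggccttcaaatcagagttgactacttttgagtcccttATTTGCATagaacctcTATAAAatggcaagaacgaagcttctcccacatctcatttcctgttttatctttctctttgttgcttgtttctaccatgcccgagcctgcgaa
H3c8, GRCm38.p6 chr13:23535168-23535467, plus strand: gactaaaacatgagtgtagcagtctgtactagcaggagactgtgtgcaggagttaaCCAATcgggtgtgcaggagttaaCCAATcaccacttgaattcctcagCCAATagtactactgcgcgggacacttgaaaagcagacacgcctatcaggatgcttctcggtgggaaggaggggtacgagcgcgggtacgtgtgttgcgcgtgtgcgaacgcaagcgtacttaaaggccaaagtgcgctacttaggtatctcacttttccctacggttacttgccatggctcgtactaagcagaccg
H4c4, GRCm38.p6 chr13:23581318-23581617, plus strand: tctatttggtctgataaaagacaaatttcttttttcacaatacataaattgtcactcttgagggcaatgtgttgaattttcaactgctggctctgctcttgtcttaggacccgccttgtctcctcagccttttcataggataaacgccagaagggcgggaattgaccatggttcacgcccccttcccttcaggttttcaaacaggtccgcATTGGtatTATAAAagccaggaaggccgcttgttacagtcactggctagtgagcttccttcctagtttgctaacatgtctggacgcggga

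H2bc8 held an octamer 59 bases and a TATAAA 43 bases before its start, and H2ac8 read the same octamer on the other strand. H3c8 had 3 CCAAT boxes and no TATAAA, and H4c4 a TATAAA 32 bases before its start and 1 CCAAT box. Both CCAAT boxes and the TATAAA of H2bc8 also lie within the H2ac8 window.

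Most genes of the machinery around histone mRNA were within a log2 fold change of 1 of untreated cells. In the list of 18 genes for histone mRNA processing and decay, the median log2 fold change was -0.37 (BLA), -0.23 (BLU), 0.05 (BLA-A) or -0.10 (BLU-A), and the most counted genes Tut4, Srrt and Tut7 stayed between -0.62 and 0.35. Ncbp2, a subunit of the cap-binding complex, was the one gene beyond -1, in BLA (-1.08) and BLA-A (-1.30). Slbp, the stem-loop binding protein, was at 63.2 CPM in untreated cells, 42.9 with BLA, 53.2 with BLU, 66.6 with BLA-A and 52.2 with BLU-A. Of 11 genes for histone gene transcription, whose most counted were Crebbp, Pou2f1 and Ep300 (-0.14 to 0.41), E2f1 alone was beyond 1, in BLA-A (1.40), at 16.8 CPM in untreated cells and 45.3 in BLA-A. Npat, the coactivator of histone gene transcription at the histone locus body, was at 139.6, 152.0, 127.7, 113.7 and 143.9 CPM. Of 16 histone chaperone genes, with Atrx, Supt16 and Rbbp4 the most counted (-0.55 to 0.15), Ipo4, an importin for histones, was beyond -1 in BLA (-1.27) and at 0.86 in BLA-A.

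DNA replication genes stood slightly lower in BLA, where 22 of 23 S phase genes were below 0 with a median of -0.45, beside -0.27 for BLU, -0.06 for BLA-A and -0.17 for BLU-A. The most counted, the helicase subunit genes Mcm6, Mcm4 and Mcm3, were at -0.69, -0.81 and -0.81 in BLA. In BLA-A Mcm5, a subunit of the replicative helicase, was beyond 1 (1.05), and Dut (-1.20), Tyms (-1.16) and Gins1 (-1.01) were beyond -1. The 10 G2/M genes had a median of -0.49 with BLA, -0.22 with BLU, -0.21 with BLA-A and -0.10 with BLU-A. Mki67, Top2a and Cdk1 were the most counted, and Top2a, the topoisomerase that untangles replicated DNA, was beyond -1 in BLA-A (-1.23). The part of these genes' values in the histone values was not tested.

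Replacement histones are made outside S phase from mRNAs with poly(A) tails. Of the 10 genes of that list compared, which include H1f0, 5 were beyond -1 in BLA-A (median -0.88), against 12.3% of all genes. H2az2, a replacement H2A, was at 169.6 CPM in untreated cells, 118.1 with BLA, 127.5 with BLU, 51.8 with BLA-A and 141.7 with BLU-A. H2az1 (-1.15), H2aj (-1.07), H3f3a (-1.11) and Macroh2a2 (-1.21) were the other 4 in BLA-A. H3f3b, which with H3f3a encodes the replacement histone H3.3, was higher there, at 345.8 CPM in untreated cells and 590.7 in BLA-A (0.77). In BLA 3 of the list were beyond -1, H1f0, H3f3c (-1.17) and Macroh2a2 (-1.06), and Macroh2a2 was so in BLU too (-1.58). Macroh2a1, the third most counted of the list, stayed between -0.03 and 0.11.

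Other RNAs that have no poly(A) tail were higher in BLA-A, as were the H3 genes and most H2B genes but not the histone genes as a whole. Of the 8 compared, 6 were beyond 1 there, with a median of 1.73, against 0.00 (BLA), -0.26 (BLU) and 0.27 (BLU-A). Rn7sk, the 7SK RNA that restrains transcription elongation, was at 91.4 CPM in untreated cells, 75.7 with BLA, 58.7 with BLU, 3471.2 with BLA-A and 93.7 with BLU-A. Rmrp was at 64.4, 68.9, 52.3, 898.4 and 60.3 CPM, and Rpph1, the RNA of RNase P, at 946.0, 1597.2, 789.7, 2572.7 and 1271.3. Rn7s1 (3.39), Scarna2 (1.88) and Terc (1.59) were the other 3. Scarna2 reached 1 CPM in BLA-A alone and Snord3a in BLU-A alone. The RNAs of this list with 1 CPM in every library were 4 (Rn7sk, Rmrp, Rpph1 and Terc), which had a BLA-A median of 2.69. Of 168 other protein-coding genes with a single exon, 32 were beyond 1 and 6 beyond -1 in BLA-A (median 0.33). Over all genes 8.55% and 12.3% were. The part of these differences between libraries in the H3 and H2B values of BLA-A was not tested.

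**Figure D5:**
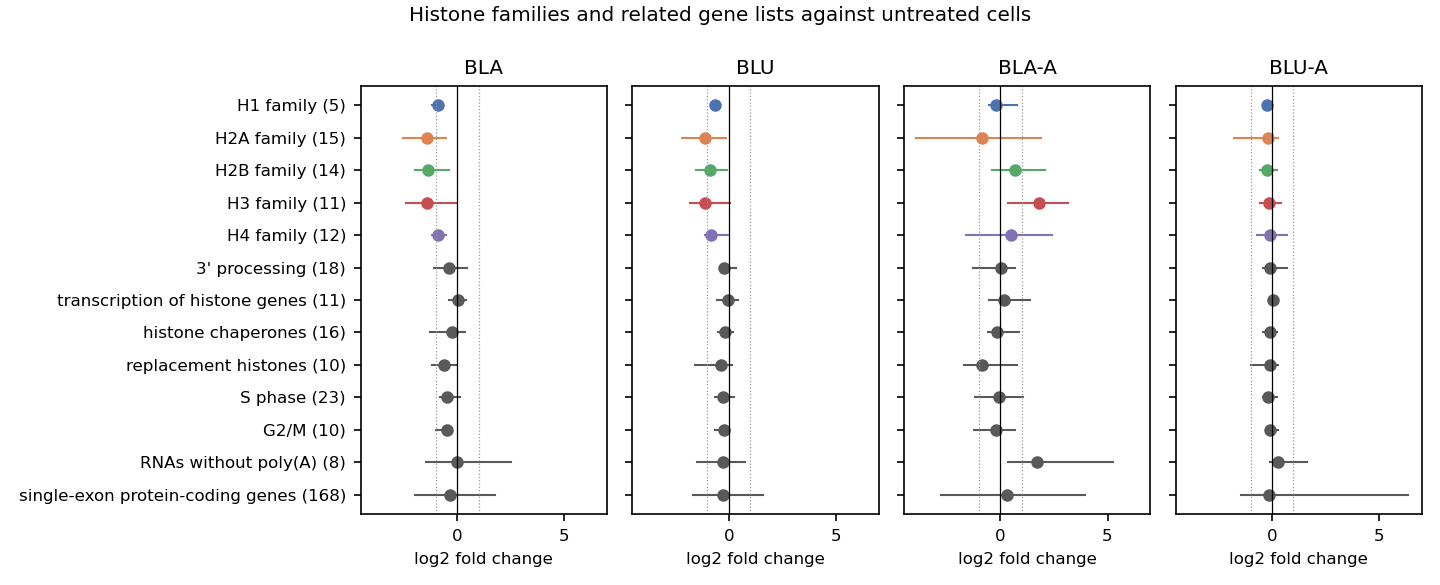
Median (point) and range (line) of the log2 fold change against untreated cells in each histone family and related list, with the number of genes compared in brackets and dotted lines at 1 and -1. The histone families lie left of the other lists in BLA and BLU, and in BLA-A the H3 family (1.82) and RNAs without poly(A) (1.73) lie right while H2A (-0.87) and the replacement histones (-0.88) lie left.

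Histone genes resemble each other, and reads mapping to several places were left out by the authors, so a level can miss reads. Of the 73 coding sequences, 49 share over 50% of their 50-base windows with another member and 10 are identical to another. Over the 57 genes compared, Pearson's r between that shared percentage and the log2 fold change against untreated cells ran from -0.27 (BLU) to 0.05 (BLU-A), and with the GC content of the coding sequence from -0.31 (BLU) to -0.01 (BLU-A). The genes share libraries and sequence, so these are descriptions. In 13 of the 73, another gene of the count table overlaps: H2bc6 overlaps the edges of H1f4 and H4c4, H2bc4 overlaps H2ac6, and H2bc3 overlaps H3c3. Whether the merged mates kept their strand is not given in the sources used here, so opposite-strand partners cannot be told apart either.

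Finally, the 4 treated libraries were set against the untreated one in a single fit over all 17594 genes. None of the 57 histone genes passed an adjusted p of 0.05 (edgeR quasi-likelihood test, Benjamini-Hochberg adjustment; smallest adjusted p 0.9996), and 4 of all genes did (0.0227%). At an unadjusted p under 0.05 there were 2 of the 57 (3.51%, against 2.72% of all genes), H2ac23 and H4c11, and DESeq2 called none (3 unadjusted). The fit has 1 untreated library and 3 residual degrees of freedom, and its spread is that between unlike treatments (biological coefficient of variation 45.1%). In data simulated for this comparison at a coefficient of variation of 0.45, it recovered 11% of 100 genes changed 4-fold and 85% of 100 changed 16-fold, so it says little about smaller changes. Fits that left out each treated library in turn also rest on 1 untreated library. Without BLA-A or BLU-A the share of histone genes under 0.05 unadjusted stood above that of all genes. Without BLA or BLU it lay near that of all genes. No histone gene passed the adjusted threshold in any of them, and none of these fits has a replicate check.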

How the data were processed

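Bulk RNA-seq of 4T1 cells covered 5 conditions, with 15 columns in the count table. The authors deposited whole-number counts per gene, without normalization. They removed ribosomal RNA enzymatically, primed with random hexamers and oligo-dT, aligned the merged mates to GRCm39 with STAR and counted uniquely aligned reads on whole gene features in OmicsBox with a forward strand setting. Per the labels, DESeq2 1.36.0 was among the tools used. Their supplement counts 15 processed libraries in the alignment step but 5 alignment files in the gene-level quantification. It lists the read files of the 15 under a heading of subset reads, while the paper describes replicates as independent. The 3 columns of a condition vary by less than sampling noise, but where they come from is not stated outright in the sources used here. Other deposited tables hold the authors' own fold changes with FDR and their GO enrichment scores and were not used.

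The columns of a condition were averaged into 1 library, because chi-square over its degrees of freedom fell below 1.5 for genes averaging 10 or more counts. Labels number the columns 1 to 3. Over 30 pairs of conditions and numbers, same-numbered columns did not deviate together (correlation -0.0198 to 0.0147), so the numbers were not used as pairs. Each column has a batch date of its own, so batch and condition cannot be told apart.

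A gene entered the comparisons when any library reached 1 CPM for it, which 17594 did. CPM used TMM library sizes (edgeR 4.0.16), a log2 fold change compares CPM plus 0.5, and it was counted as past the threshold over 1 in size, with no test. Counting intervals of ratios are exact conditional binomial (Clopper-Pearson, 95%) and leave the 0.5 out, those of shares are Wilson intervals, and the floor is 3 counts. The quasi-likelihood test compared 4 treated libraries with 1 untreated library and was tested on simulated data; DESeq2 1.42.0 was an alternative. The scripts ran in R 4.3.3 and in Python 3.11.15 with pandas 2.3.3 on numpy 2.4.6. Gene positions and coding sequences came from GENCODE M39, promoters from RefSeq. 

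The members and the gene lists were chosen with earlier results of these data known. Genes given in full are the 3 of each family with the highest mean CPM over the 5 libraries, those past the threshold in the same direction in at least 3 treatments, and the 2 largest rises and falls in each treatment among genes with at least 20 counts; of the lists, the most counted genes and those past the threshold. Other members are named to account for the list. Alternatives covered the normalization, the filter, the pseudocount, the columns, the test and the members counted.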

Additional observations from a re-analysis of the deposited data

How the results depend on the processing

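Scaling by total counts moved the median of all genes in BLA-A from -0.01 to -0.18, and its share of higher calls among all genes past the threshold from 40.9% to 28.5% (against BLA, from 47.1% to 36.2%). The histone genes in BLA-A then had 17 beyond 1 and 8 beyond -1, with a median of 0.34, and with DESeq2 size factors 21 and 8. The counts in each treatment kept within 1.5 times of the main count under both scalings. Without a filter on low counts 1 gene was beyond 1 in BLA. The 2 genes beyond -1 in BLU-A became 0 with 1 CPM asked of every library and 1 with a pseudocount of 2.

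Leaving out members moved the most counts, with fewer genes counted, and moved shares and medians too. The cause was not tested. Without the members that overlap another annotated gene, which takes out all H2A genes, 11 of 19 were beyond -1 with BLA, 10 with BLU and 0 with BLU-A, 11 were beyond 1 and 0 beyond -1 in BLA-A, the medians in BLA-A and BLU-A were 1.19 and -0.03, and against BLA 16 were beyond 1 and 0 beyond -1. Without members that share over 50% of their windows, no H3 gene was left. Of the 13 genes then counted, 7 were beyond -1 with BLA, 1 with BLU and 0 with BLU-A, and the BLU median was -0.73. In BLA-A 2 of the 13 were beyond 1 and 1 beyond -1. Against the plain extract 9 and 0 were then beyond 1 and -1 in BLA-A, and 0 beyond 1 in BLU-A. Leaving out the 13 members whose overlapping gene is in the count table, an alternative chosen after seeing the data, kept every count within 1.5 times.

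Gm26917 takes 4.55% to 7.84% of counts. Without it the histone share was 0.695% in untreated cells, 0.332% with BLA, 0.409% with BLU, 0.616% with BLA-A and 0.619% with BLU-A. Without H1f0, H1f10 and the germ cell members it was 0.528%, 0.257%, 0.310%, 0.484% and 0.481%, with overlapping 95% Wilson intervals for BLA-A (0.481 to 0.486) and BLU-A (0.478 to 0.483).

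The replicate numbers do not pair the columns. With the 15 columns as samples, the fit with no replicate block called 39 genes lower with BLA, 23 with BLU, 9 with BLA-A and 2 with BLU-A and 20 higher with BLA-A, and the fit with the replicate block 39, 23, 9, 2 and 20. Over all genes 12.0%, 7.78%, 17.0%, 8.12% and 11.1% were called, against 68.4%, 40.4%, 15.8%, 3.51% and 35.1% of the histone genes. Leaving out each column number in turn gave a BLA-A median of 0.46 to 0.52 and 20 genes beyond 1 each time. Depth limits genes under about 0.1 CPM, and the columns add no replication.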
